A study of Mus musculus with 20 samples.

Results

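Chromatin accessibility was compared directly between stem and progenitor cells carrying a mutant mitochondrial enzyme, Idh2 R172K, and those carrying a mutant cytosolic enzyme, Idh1 R132H. The libraries were taken by genotype alone: 8 of the 20 in the series, 4 per genotype. All 123908 tested peaks of the 125343 in the count table were included. The assay was ATAC-seq, in which a transposase cuts accessible DNA and leaves sequencing adapters there, so that reads pile up over open regulatory elements. The cells were Lin-cKit+Sca1+ (LSK) cells sorted from the bone marrow of C57Bl/6J mice aged 3 to 4 months, a gate that holds blood stem cells and multipotent progenitors, and each library joined 2 mice. One group was Idh2LSL-R172K/+;Vav-Cre and the other Idh1LSL-R132H/+;Vav-Cre. In both, Vav-Cre, a recombinase made in blood cells, switches on 1 mutant copy by removing a stop cassette, and the second copy is normal. WT mice (+/+;Vav-Cre) carried the same Cre and no mutant allele. Levels in WT, Idh2LSL-R140Q/+;Vav-Cre and Tet2-/- mice, with 4 libraries each, are given only as reference. The label of the last group names no Cre. The count columns taken as Idh2 R140Q have names that join IDH1 with R140Q, and were assigned to that genotype because no other labelled one carries R140Q.

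Isocitrate dehydrogenases turn isocitrate into 2-oxoglutarate, Idh1 in the cytosol and Idh2 in the mitochondrion. The mutant forms found in leukaemia instead reduce 2-oxoglutarate to 2-hydroxyglutarate. This metabolite inhibits enzymes that use 2-oxoglutarate to remove methyl or add hydroxyl groups, among them the Tet enzymes that oxidize methylated cytosine, JmjC histone demethylases and the prolyl hydroxylases that sense oxygen. Because the 2 mutant enzymes sit in different compartments, the comparison asks whether they leave the same accessible chromatin in the same cells.

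To show what changed start sites look like in both directions, 4 are printed here. These windows were chosen after their values were seen, and each holds the 250 bases before a RefSeq start site (GRCm38.p6, the assembly that mm10 represents). Each lies largely inside a peak of the promoter class. The sequences are written 5′ to 3′ on the strand of the gene, with every CpG dinucleotide, the usual site of DNA methylation, in capitals. The peaks at Sema4b and Csf3r were raised in R172K, and those at Chdh and Aim2 were lowered.
Sema4b (chr7:80198338-80198587, plus strand): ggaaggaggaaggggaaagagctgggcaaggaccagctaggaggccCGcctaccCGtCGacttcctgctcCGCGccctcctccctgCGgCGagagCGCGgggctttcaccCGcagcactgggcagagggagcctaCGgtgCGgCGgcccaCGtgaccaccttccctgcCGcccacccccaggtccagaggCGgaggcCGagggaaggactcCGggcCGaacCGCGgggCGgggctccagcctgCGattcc
Csf3r (chr4:126024409-126024658, plus strand): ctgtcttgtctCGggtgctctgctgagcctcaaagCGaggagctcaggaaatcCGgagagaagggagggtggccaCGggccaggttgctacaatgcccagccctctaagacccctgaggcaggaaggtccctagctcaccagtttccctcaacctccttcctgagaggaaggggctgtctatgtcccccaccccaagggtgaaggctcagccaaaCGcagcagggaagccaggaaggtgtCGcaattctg
Chdh (chr14:30022383-30022632, plus strand): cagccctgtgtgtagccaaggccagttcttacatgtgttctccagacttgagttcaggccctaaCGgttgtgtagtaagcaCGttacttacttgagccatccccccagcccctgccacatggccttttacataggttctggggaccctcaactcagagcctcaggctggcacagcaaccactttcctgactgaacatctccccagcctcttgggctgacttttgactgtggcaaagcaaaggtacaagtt
Aim2 (chr1:173420354-173420603, plus strand): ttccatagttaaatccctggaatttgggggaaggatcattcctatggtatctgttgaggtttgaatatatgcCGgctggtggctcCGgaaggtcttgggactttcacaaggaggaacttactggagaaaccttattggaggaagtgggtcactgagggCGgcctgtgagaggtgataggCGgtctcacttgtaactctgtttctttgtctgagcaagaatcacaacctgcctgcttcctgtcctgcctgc
The window of Sema4b, a membrane semaphorin gene close to Idh2, held 23 CpG. That of Csf3r, the receptor for granulocyte colony-stimulating factor, held 6. Chdh, a mitochondrial choline dehydrogenase, had 2, and Aim2, a sensor of cytosolic DNA, had 4.

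At Sema4b the R132H libraries gave 37.8, 37.9, 38.0 and 36.2 CPM (counts per 1000000 counts in peaks, scaled by TMM factors), and the R172K libraries 83.9, 72.5, 81.5 and 78.9. The groups did not overlap, the log2 fold change was 1.08 (SE 0.064), and WT (35.9 CPM) and R140Q (36.5 CPM) lay with R132H. All fold changes are R172K minus R132H, from the edgeR quasi-likelihood test. For Csf3r the values were 14.5, 13.7, 13.8 and 15.8 CPM in R132H against 32.0, 24.7, 29.6 and 26.8 in R172K, a log2 fold change of 0.98 (SE 0.082, adjusted p = 3.34e-13). At Chdh, R132H gave 5.42, 5.47, 5.87 and 5.62 CPM and R172K 0.423, 0.39, 0.333 and 0.225, so that little of the signal was left (log2 fold change -4.00, SE 0.21, adjusted p = 1.56e-19). The Aim2 peak fell from 11.6, 12.2, 12.6 and 13.7 CPM to 2.0, 3.8, 2.66 and 2.82 (log2 fold change -2.23, SE 0.11, adjusted p = 6.67e-20). In each of these peaks every R172K library lay beyond every R132H library.

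Accessibility differed between the 2 mutants over much of the peak set. Of the 123908 peaks, 61930 (50%) differed at an adjusted p threshold of 0.05 (Benjamini-Hochberg, edgeR quasi-likelihood test), and these are called below. Raised peaks, higher in R172K, numbered 28882 (23.3%) and lowered peaks 33048 (26.7%). Large changes leaned to loss: 15090 peaks (12.2%) were lowered more than 2-fold and 4356 (3.52%) raised more than 2-fold, and beyond 4-fold there were 2601 lowered and 438 raised peaks. Many calls were small, since 24056 of them (38.8%) were under 1.5-fold, and the median log2 fold change was 0.52 among raised and -0.94 among lowered peaks. Over all tested peaks it was 0.01. In 24251 peaks (19.6%) every R172K library lay above every R132H library, and in 28319 (22.9%) below. ATAC-seq of a sorted pool cannot tell fewer cells of a type from less open chromatin per cell, for any of these peaks.

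In the same fit, which shares the WT libraries, R132H differed from WT in 34 peaks (0.0274%; 8 raised, 0.00646%, and 26 lowered, 0.021%). R172K differed from WT in 65673 (53%; 25.1% raised and 27.9% lowered). R140Q, the other Idh2 mutant, differed from R132H in 51 peaks (0.0412%; 0.0266% raised and 0.0145% lowered), whereas R172K differed from R140Q in 58244 (47%; 21.5% raised and 25.5% lowered). The direct contrast equals the difference between each mutant's change from WT, so these counts are set side by side and not compared further.

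Total counts in peaks were 17439280 to 27890340 per R132H library and 10502052 to 27812823 per R172K library. On the first principal component of the 8 libraries (66.3% of the variance) R132H libraries lay from -131.6 to -116.7 and R172K libraries from 109.6 to 135.6. R172K replicate 2, the shallowest library, stood apart on the second component (9.4%) at -112.9, where the other 7 lay between -13 and 44.2, and without it 59862 peaks were called. Signal over Xist, the RNA of the inactive X, was low in replicates 1 and 3 of both genotypes (3.86 to 4.73 CPM) and high in replicates 2 and 4 (34.1 to 39.1 CPM). Both genotypes held both kinds. Within the former sets 53438 peaks were called, and within the latter, which include the shallowest library, 37349. Peaks at start sites of Cd34, Flt3, Mecom and Procr were open in both genotypes, while no tested peak was named for Cd79a, Hbb-bs or Ly6g. The label gives no link between replicate numbers and cages or days, so p-values measure the spread between pools.

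**Figure D1:**
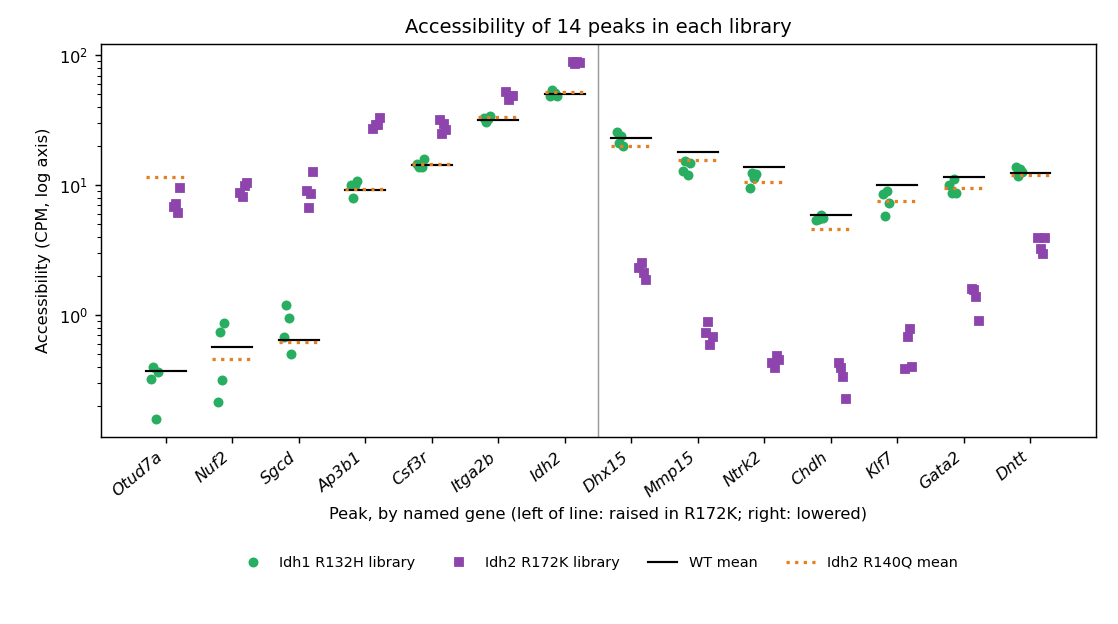
Accessibility (CPM, log axis) of 14 peaks in each of the 4 R132H libraries (circles) and the 4 R172K libraries (squares), with the WT mean (line) and the R140Q mean (dotted line). The groups are apart at each of the 14 peaks, which was a condition of choice for all but Csf3r, Itga2b, Idh2, Gata2 and Dntt. R140Q lies near WT and R132H at all but the Otud7a peak, where it is at 11.5 CPM.

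The 10 raised genes with the smallest p were led by intron and intergenic peaks, some of them far from the gene they are named for. Ap3b1, a subunit of the AP-3 adaptor of vesicle sorting, had a peak 4215 bp outside the gene (chr13:94354492-94354999) at 10.1, 7.97, 10.0 and 10.7 CPM in R132H and 27, 28.9, 29 and 32.9 in R172K. Separated groups were a condition of this ranking. The log2 fold change was 1.59 (SE 0.080, adjusted p = 8.07e-20), and WT (9.14 CPM) sat with R132H. An intron peak of Arhgap45 went from 3.54, 3.93, 4.26 and 3.99 CPM to 18.7, 17.5, 15.9 and 16.1 (log2 fold change 2.12, SE 0.12, adjusted p = 2.57e-18). The intron peak of Dnajc16, of the J-domain co-chaperone family, went from 2.02, 1.94, 1.93 and 2.13 CPM to 11, 8.77, 9.83 and 9.12. An intergenic peak 29375 bp from Cck, which encodes the peptide hormone cholecystokinin, rose from between 2.51 and 3.08 CPM to between 10.3 and 12. The remaining peaks of this kind were named for Otud7a, Tmem17, Slc4a3, Mdga2, Nuf2 and Sgcd, with log2 fold changes from 1.51 (Tmem17) to 4.58 (Otud7a).

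Some raised peaks were nearly closed in R132H. The peak named for Nuf2, a kinetochore protein (chr1:169024335-169025174, 473180 bp from the gene), gave 0.213, 0.74, 0.315 and 0.861 CPM in R132H, and 8.77, 8.18, 9.8 and 10.4 in R172K. It was as low in WT (0.563 CPM), R140Q (0.454) and Tet2-/- (0.74), so that R172K stood alone among the 5 genotypes. An intron peak of Sgcd, a sarcoglycan of the muscle membrane, behaved alike: 0.673, 1.2, 0.946 and 0.498 CPM in R132H, 9.04, 6.62, 8.5 and 12.6 in R172K, and 0.639 in WT (log2 fold change 3.52, SE 0.19). Near Hdgfl1 a peak went from between 0.158 and 0.399 CPM to between 5.51 and 8.33 (log2 fold change 4.57), and near Tafa1, a secreted neuropeptide-like protein, from 0.454 ± 0.12 to 5.24 ± 1.88 CPM (mean ± SD, n = 4; 3.49). A peak's name marks the nearest protein-coding gene and not a shown target.

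The first lowered peaks by p were strong in R132H, in a ranking that favours strong peaks. Of all 33048 lowered peaks, 3999 lay in the highest quintile by mean level. The peak with the smallest p of all lay 8193 bp from Dhx15, an RNA helicase of the spliceosome (chr5:52141647-52142374), at 25.7, 21.2, 23.8 and 20.2 CPM in R132H and 2.31, 2.53, 2.11 and 1.86 in R172K. This is a log2 fold change of -3.39 (SE 0.11, adjusted p = 3.80e-25), with WT at 23.0, R140Q at 20.2 and Tet2-/- at 15.2 CPM. An intron peak of Mmp15, a membrane-bound matrix metalloproteinase (chr8:95369425-95370383), fell from 12.8, 15.3, 12 and 14.8 CPM to 0.731, 0.877, 0.591 and 0.676 (log2 fold change -4.29, SE 0.15). The intron peak of Fnbp1, a protein that bends membranes at sites of endocytosis, fell from between 28.5 and 31.9 CPM to between 3.83 and 4.51. For Pitpna, a phosphatidylinositol transfer protein, a peak 153 bp from an annotated start site fell from 20.3, 18.4, 20.0 and 17.0 CPM to 2.73, 2.92, 2.85 and 2.82. The other genes first by p were Msl3l2, Plk2, Rab3ip, Atp10a, Ntrk2 and Col5a1, with log2 fold changes from -2.75 (Plk2) to -4.66 (Ntrk2).

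By size, the first lowered peak was named for Ntrk2, the receptor TrkB for brain-derived neurotrophic factor (chr13:59228026-59228861, 94473 bp from the gene). It gave 9.54, 12.5, 11.3 and 12.3 CPM in R132H and 0.423, 0.39, 0.481 and 0.45 in R172K, and 6.61 in Tet2-/-. Peaks near Sh3gl3, an endophilin (5.05 ± 0.361 to 0.238 ± 0.189 CPM, n = 4), and Ddx6, an RNA helicase of P-bodies (5.37 ± 0.902 to 0.236 ± 0.066 CPM), fell by 4.63 and 4.43 on the log2 scale. Those near Aqp4, a water channel, and in Susd1 fell by 4.41 and 4.36. Separated groups were a condition of this ranking, so in all of these the R172K libraries lay under every R132H library.

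Among peaks of the promoter class with at least 5 CPM in the higher group, the lowered ones changed further than the raised ones. Atf7ip, a partner of the histone methyltransferase Setdb1, had such a peak inside the gene at 9.32, 9.4, 9.26 and 9.51 CPM in R132H and 0.346, 0.877, 0.37 and 0.676 in R172K (log2 fold change -4.22, SE 0.18, adjusted p = 2.36e-22). The Klf7 peak, 57 bp from a start site of this zinc-finger factor gene, fell from 8.58, 5.81, 9.1 and 7.34 CPM to 0.385, 0.682, 0.776 and 0.394 (log2 fold change -3.80, SE 0.30). Tet2-/- lay at 4.57 CPM and WT at 9.99. Plec, encoding the cytoskeletal linker plectin, and Col27a1, a collagen gene, had log2 fold changes of -3.41 and -3.32 at such peaks. Raised promoter-class peaks began with Por, the electron donor of cytochrome P450 enzymes, at 1.74, 1.94, 1.85 and 1.99 CPM in R132H and 9.42, 9.16, 9.57 and 11 in R172K (log2 fold change 2.39, SE 0.14). Spag9, a scaffold of JNK signalling (1.93), Adamtsl1 (1.92), Popdc2, a membrane protein that binds cyclic AMP (1.86), and Olfm3, a secreted olfactomedin (1.76), followed on the log2 scale.

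Direction followed the kind of element. In the promoter class (15572 peaks) 31.0% were raised and 14.8% lowered, while introns (51772 peaks) had 21.8% raised and 29.4% lowered and intergenic peaks (44624) 21.8% and 28.6%. Exon peaks had 25.7% and 22.4%, and peaks at transcription ends 25.1% and 24.2%. Level went with direction as well: in the lowest quintile by mean level 14.7% of peaks were raised and 24.9% lowered, and in the highest quintile 35.7% and 16.1%. Within the highest quintile, 38.3% of promoter peaks but also 33.8% of intron peaks and 32.8% of intergenic peaks were raised. Only there were promoter peaks raised more often than lowered (7.0% lowered), and 9404 of the 15572 lay in it. In the lowest quintile 12.5% of promoter peaks were raised and 22.4% lowered, against 14.3% and 25.2% of intron peaks. In the fourth quintile promoter peaks had 26.3% and 26.4%. When the trend with level was removed by cyclic loess, promoter peaks had 23.2% raised and 19.3% lowered, intron peaks 25.3% and 26.8%, and the highest quintile 25.5% and 23.1%. The promoter lean toward gain was thus smaller under loess, and with library size alone as the scaling it was 24.2% against 17.8%. Large changes in either direction were rarer at promoters under the main scaling, where 1.21% were raised and 5.20% lowered beyond 2-fold, against 3.72% and 13.88% in introns. Peaks beyond 100 kb from a start site held more strong changes, with 8.77% raised and 15.89% lowered beyond 2-fold, against 3.52% and 12.18% of all. They were also weaker, with medians of 1.55 CPM in R172K and 1.62 in R132H, against 2.38 and 2.58 over all peaks. In the lowest quintile by level 8.5% were raised and 18.11% lowered beyond 2-fold. Distance was not separated from level here.

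**Figure D2:**
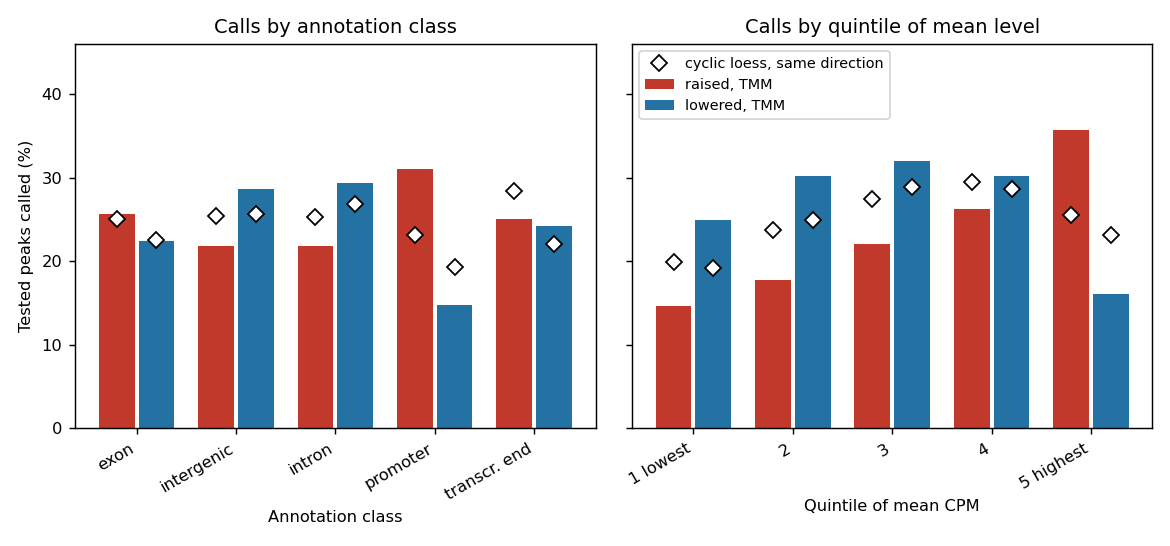
Share of tested peaks (%) called raised (red bars) and lowered (blue bars) in R172K against R132H under TMM scaling, by annotation class on the left and by quintile of the mean level on the right, with the same shares under cyclic loess scaling as diamonds. Promoter peaks show 31.0% raised and 14.8% lowered under TMM and 23.2% and 19.3% under loess, and the rise of raised calls from the lowest to the highest quintile (14.7% to 35.7%) is smaller under loess (19.9% to 25.5%, with 29.5% in the fourth quintile).

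CpG number at the start site went with the call, in a way that moved with scaling and level. RefSeq windows from 250 bases before to 50 bases after the start were matched to 11068 peaks that cover a start site, of which 3911 were raised and 1028 lowered. In windows with 10 to 19 CpG 42.4% of peaks were raised and 7.4% lowered, and with 20 to 29 CpG 38.0% and 3.8%. Under cyclic loess these shares were 28.5% and 11.2%, and 21.8% and 12.5%. In 3 equal sets of windows by mean level, those with 10 to 19 CpG were raised most often in the low and high sets (31.1% and 49.9%), but in the middle set those with 0 to 9 CpG were, at 51.8% against 47.8% with 10 to 19 and 36.7% with 20 or more. Windows with 0 to 4 CpG split into 209 raised and 197 lowered (27.4%) of 720. In those with 30 or more the shares were 23.8% and 9.4%, but under cyclic loess 13.1% and 25.5%, so that the balance of the most CpG-rich windows turned with the scaling. The strongly changed start sites were poor in CpG in both directions: 208 lowered beyond 2-fold had a median of 6 per window and 46 raised beyond 2-fold a median of 4.5, against 20 over all 11068. They were also weaker, with median levels of 3.53 and 1.95 CPM against 28.

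**Figure D3:**
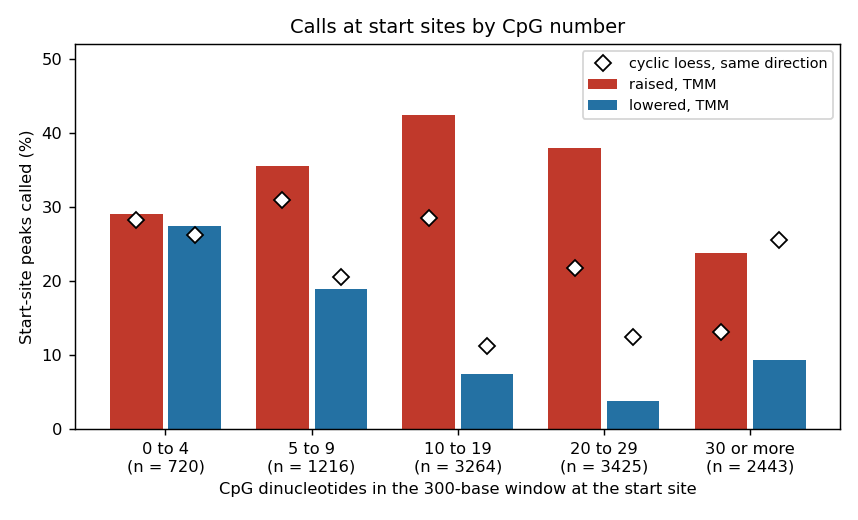
Share of start-site peaks (%) called raised (red bars) and lowered (blue bars) in R172K against R132H under TMM scaling, by the number of CpG in the window at the start site, with cyclic loess scaling as diamonds. Under TMM raised calls peak at 42.4% in windows with 10 to 19 CpG, lowered calls are lowest at 3.8% with 20 to 29, and with 30 or more CpG the diamonds stand at 13.1% raised and 25.5% lowered.

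Short motifs were counted in the same windows on both strands, as letters only. The GATA motif AGATAA occurred in 12 of the 46 windows raised beyond 2-fold (26.1%), in 10.6% of the 208 lowered beyond 2-fold and in 6.2% of all 11068. The RUNX motif TGTGGT was in 25.5% of the strongly lowered and 19.6% of the strongly raised windows, against 12.6% of all. The AP-1 motif TGANTCA was in 11.5% of strongly lowered windows and 6.5% of strongly raised ones, against 4.9%. GC boxes (GGGCGG) showed the opposite, with 33.7% and 21.7% against 65.3%, as did the ETS motif CCGGAAG with 7.2% and 2.2% against 15.9%. The CCAAT box was in 42.8% of all raised windows and 30.2% of all lowered ones, against 37.5%. These motifs differ in base composition, and the windows differ in CpG number, so the shares are descriptions of the sequence and not of binding.

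The Idh2 gene itself carried more ATAC-seq signal in R172K. All 8 tested peaks named for Idh2 were raised, where the background is 23.3% of peaks, with log2 fold changes from 0.60 to 1.40. Its start-site peak (chr7:80114288-80115707) gave 49.1, 54.0, 51.5 and 48.4 CPM in R132H and 89.7, 85.3, 88.8 and 87.4 in R172K, and WT (50.2 CPM) and R140Q (51.8 CPM) were level with R132H. The groups did not overlap, and the log2 fold change was 0.79 (SE 0.057, adjusted p = 3.66e-15). A peak 25142 bp upstream gave 41.2 ± 0.778 CPM in R132H and 65.0 ± 3.39 in R172K (n = 4; 0.66 on the log2 scale). The weakest of the 8, at chr7:80098545-80098786, gave 0.461, 0.569, 0.473 and 0.317 CPM in R132H and 0.846, 0.584, 0.961 and 0.507 in R172K. These ranges overlapped, and its call (adjusted p = 0.0477) was lost in 9 of 20 alternative settings.

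The gain reached past the gene. Within 100 kb of the middle of Idh2, 29 of 43 peaks were raised (67.4%) and 6 lowered, with a median log2 fold change of 0.55. From 100 to 200 kb 7 of 18 were raised, and from 200 to 500 kb 16 of 80 (20.0%), near the background. Zfp710, a zinc-finger gene on one side, had 12 of its 19 peaks in the inner window raised and 2 lowered, and its promoter peak went from 50.5 ± 2.18 to 79.8 ± 3.71 CPM (n = 4, log2 fold change 0.67). Sema4b, on the other side, had 9 raised and 4 lowered of 16, including the promoter whose sequence is printed above. R140Q had 44.3 CPM at the Zfp710 promoter and 36.5 at Sema4b, where WT had 45.6 and 35.9. The cause of the gain around Idh2 in R172K was not tested, nor whether it reflects more open chromatin.

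**Figure D4:**
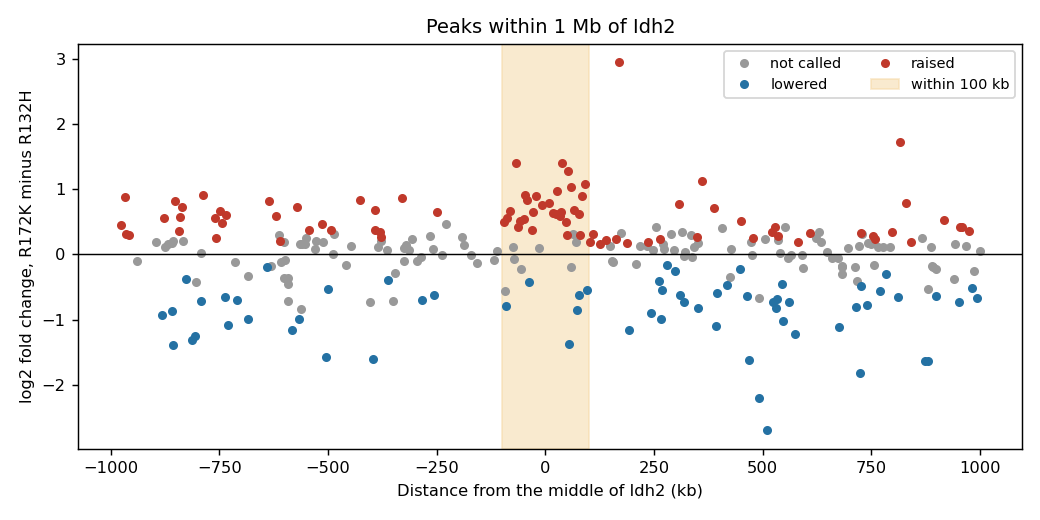
Log2 fold change (R172K minus R132H) of the 282 tested peaks within 1 Mb of the middle of Idh2, by distance in kb, coloured by call; the shaded band marks 100 kb on either side. In the band 29 of 43 peaks are raised, and beyond 200 kb raised and lowered peaks are mixed.

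At Idh1 both tested peaks were higher in R172K. The stronger peak, in an intron, (chr1:65178060-65179449) gave 65.0, 71.8, 69.7 and 77.9 CPM in R132H and 81.9, 81.1, 81.5 and 88.2 in R172K. The groups were apart by a small margin (log2 fold change 0.23, SE 0.071, adjusted p = 0.00744), and the call was lost with cyclic loess scaling (0.10) and in replicates 2 and 4 alone (0.18). WT lay at 70.0 CPM and R140Q at 71.0. The distal peak, 11965 bp away, went from 0.292 ± 0.11 to 0.939 ± 0.247 CPM (n = 4; log2 fold change 1.67, SE 0.32). Within 100 kb of Idh1, 2 of 12 peaks were raised and 4 lowered.

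A few peaks, mostly on the chromosomes of the targeted genes, had R132H alone, or both Idh2 mutants, away from the WT level. These peaks were picked after their values were seen, from the 51 that differed between R140Q and R132H, of which 25 lay on chromosome 1, the chromosome of Idh1, and 18 on chromosome 7, that of Idh2. A peak at Dst, a cytoskeletal linker gene, had 2.07 ± 0.741 CPM in R132H and 0.278 ± 0.185 in R172K, against 0.341 in WT (-2.93). Tns1, encoding the adhesion protein tensin, was lower in R132H, with 6.62 CPM against 12.8 in R172K, 10.9 in WT and 12.3 in R140Q. On chromosome 7 the Otud7a peak, near a deubiquitinase gene, gave 0.319, 0.399, 0.158 and 0.362 CPM in R132H and 6.81, 7.11, 6.06 and 9.52 in R172K, and it was 11.5 ± 1.2 in R140Q but 0.37 in WT. Fam169b had 0.0842 CPM in R132H, 1.77 in R172K and 2.59 in R140Q. An Akap13 peak, at a kinase anchoring protein gene, ran the other way with 11.9, 6.17 and 6.85 CPM in the same order. So the Otud7a peak, first by p among all raised peaks, was also high in the libraries taken as R140Q. Of the other 9 peaks in that ranking, the one named for Slc4a3, an anion exchanger, differed between R140Q and R132H as well, by less: it stood at 1.79 ± 0.183 CPM in R132H, 2.97 ± 0.281 in R140Q, 9.88 ± 0.922 in R172K and 2.41 in WT (n = 4; R140Q minus R132H 0.73 on the log2 scale, adjusted p = 0.0318). The remaining 8 did not pass that test, with R140Q means between 0.454 (Nuf2) and 12.6 CPM (Tmem17), where WT had 0.563 and 10.7.

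Gene lists were read against the background of 23.3% raised and 26.7% lowered. Each list takes every tested peak named for its genes, and its count says how its peaks split, not how its genes are expressed. Position went with the call: over all tested peaks, 31.3% were raised and 13.9% lowered within 1 kb of a start site, and 22.1% and 28.6% farther away. Over the 20 lists 38.0% to 58.7% of peaks were called. Over all tested peaks the median log2 fold change was 0.01 and the mean -0.14, and in the cytosolic, interferon, CTCF, megakaryocyte and cell cycle lists, too, a median above 0 stood beside a mean below 0.

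**Figure D5:**
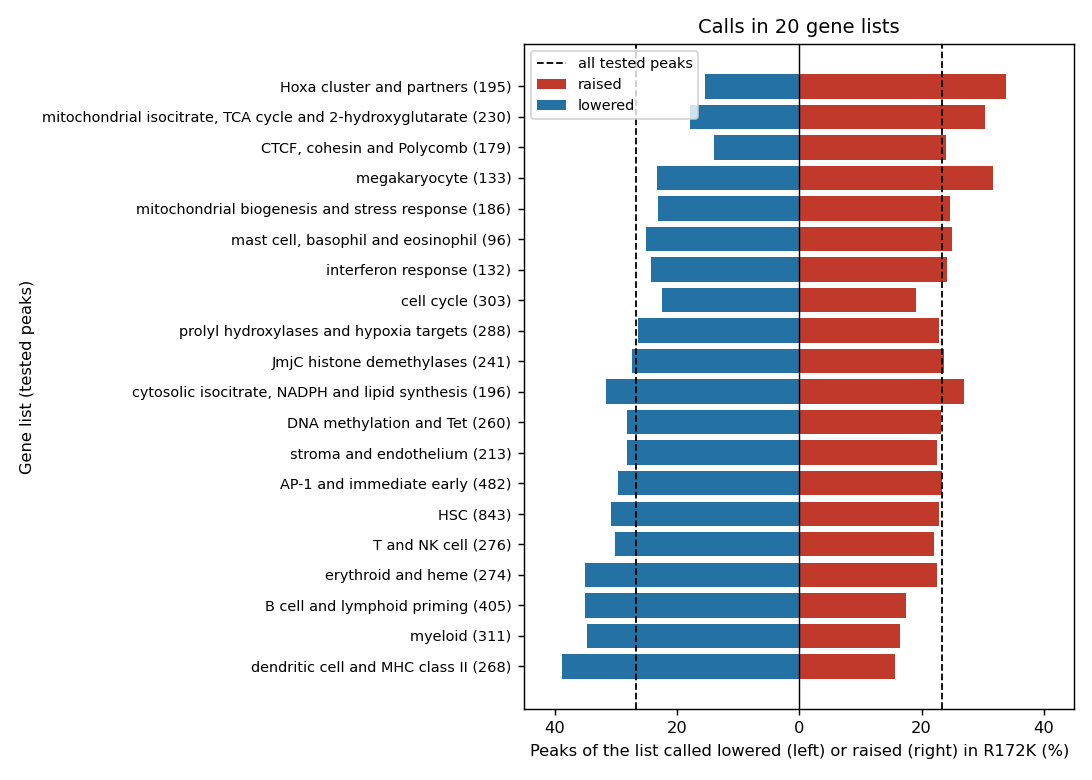
Share of the tested peaks (%) of each of 20 gene lists called lowered (left, blue) and raised (right, red) in R172K against R132H, with the number of tested peaks in brackets and dashed lines at the shares over all tested peaks (26.7% and 23.3%). The list of Hoxa genes and their partners, 64 of its 195 peaks at Meis1, stands farthest to the raised side (33.8% raised, 15.4% lowered) and the dendritic cell list farthest to the lowered side (15.7% and 38.8%).

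Genes of the mitochondrial route of isocitrate, the tricarboxylic acid cycle and 2-hydroxyglutarate removal leaned to gain. Of 230 peaks 70 were raised and 41 lowered, with a median log2 fold change of 0.11, and without the 8 Idh2 peaks 62 of 222 (27.9%) were raised and 41 lowered. Suclg2, a subunit of succinate-CoA ligase, had 6 of 12 peaks raised and none lowered, and Nnt, the transhydrogenase of the inner mitochondrial membrane, had 8 of 15 raised and 2 lowered. At a peak named for Sucla2, another succinate-CoA ligase subunit, and 242898 bp from it, the signal rose from 2.48, 1.71, 2.21 and 2.63 CPM to 9.23, 6.43, 8.06 and 9.85 (log2 fold change 1.90). Some members went down, as an intron peak of Dlst, the succinyltransferase of the oxoglutarate dehydrogenase complex, did with 10.2 ± 0.68 CPM in R132H and 3.68 ± 0.614 in R172K (n = 4; -1.48). Neither of the 2 peaks of D2hgdh, which breaks down the D form of 2-hydroxyglutarate, was called (start-site peak 44.3 ± 1.92 against 47.1 ± 1.89 CPM, log2 fold change 0.09, adjusted p = 0.227).

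The cytosolic counterpart, with NADPH and lipid synthesis, was called in 58.7% of its peaks. Of 196 peaks 53 were raised and 62 lowered, with a median of 0.01 but a mean of -0.23, and 33 were lowered and 8 raised beyond 2-fold. Beyond 2-fold the mitochondrial list, too, had more lowered than raised peaks, 19 against 13. Elovl5 and Elovl6, which elongate fatty acids, had 10 of 18 and 10 of 20 peaks lowered. The strongest, near Elovl5, gave 7.98, 4.78, 6.9 and 6.03 CPM in R132H and 0.962, 0.877, 0.554 and 0.957 in R172K (log2 fold change -2.99, SE 0.17). A peak near Tkt, transketolase of the pentose phosphate pathway, fell from 6.4 ± 0.748 to 1.34 ± 0.448 CPM (-2.21). Ldha, lactate dehydrogenase, had all 4 of its peaks raised.

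Lists built around the enzymes that 2-hydroxyglutarate acts on, which also hold other genes, stayed near the background when taken whole. In the DNA methylation and Tet list 60 of 260 peaks were raised and 73 lowered (median -0.02), in the JmjC list 57 and 66 of 241 (0.00), and among prolyl hydroxylases and hypoxia targets 66 and 76 of 288 (0.00). Single genes weighed on these counts. Jarid2 had 79 of the 241 JmjC peaks, with 11 raised and 34 lowered. Gadd45g had 62 of the 260 DNA methylation and Tet peaks, with 9 raised and 27 lowered. Tet1 had 7 of 17 peaks raised and 3 lowered. Its neighbour in function, Dnmt3a, which sets new DNA methylation, had 5 raised and 5 lowered of 18: a peak in its intron fell from 5.21, 4.61, 4.22 and 4.39 CPM to 1.12, 1.07, 1.7 and 1.24 (log2 fold change -1.80). The main Tet2 start-site peak did not pass the test, with 55.4 ± 4.72 CPM in R132H and 51.4 ± 3.93 in R172K (log2 fold change -0.10, adjusted p = 0.207). Kdm4b, a demethylase of histone H3 lysine residues, had 7 of 13 peaks raised and none lowered, and Kdm7a had 9 of 13 lowered and none raised. Egln3, an oxygen-sensing prolyl hydroxylase, had 12 of 29 lowered, and Eno1, a glycolytic enzyme, 6 of 9 raised. The mitochondrial stress list was near the background as well (46 raised and 43 lowered of 186, median 0.00).

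CTCF, cohesin and Polycomb genes were called least often, at 38.0% of 179 peaks, with 43 raised and 25 lowered. No peak of Ctcf, Rad21 or Smc3 was called. Cbx7, a Polycomb subunit, had 7 of 13 raised, although its peak with the smallest p fell from 9.38 ± 0.788 to 1.91 ± 0.243 CPM (n = 4; log2 fold change -2.26).

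Stem cell genes split by gene. Of 843 peaks in the HSC list 193 (22.9%) were raised and 260 (30.8%) lowered, and within 1 kb of a start site 30 of 65 were raised (46.2%) and 13 lowered (20.0%), where all such peaks had 31.3% and 13.9%. Meis1, a homeobox partner of Hox proteins, had 25 of 64 peaks raised and 7 lowered. Prdm16, a regulator of stem cell maintenance, had 29 of 41 lowered, Etv6 36 of 70, Runx1 32 of 99 with 15 raised, and Vwf, which marks platelet-biased stem cells, 8 of 23 with none raised. Hlf, a factor of the most immature cells, had 13 of 25 lowered, and its start-site peak gave 6.24, 5.41, 6.5 and 5.94 CPM in R132H and 3.0, 3.8, 3.14 and 3.04 in R172K (log2 fold change -0.93, SE 0.11, adjusted p = 7.60e-09).

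A start-site peak of Mecom went from 9.72 ± 0.54 to 15.8 ± 0.603 CPM (0.71), while the strongest Mecom peak near a start site, at 82.2 ± 5.89 and 87.6 ± 5.1 CPM, did not pass the test (0.10, adjusted p = 0.176). Cd34 was slightly higher (0.16, adjusted p = 0.0218, with overlapping libraries), and Flt3, the receptor that marks multipotent progenitors, was lower at both peaks over its promoter: 78.0 ± 6.3 to 65.5 ± 2.38 CPM (-0.25, adjusted p = 0.0416) and 4.97 ± 1.46 to 1.04 ± 0.374 CPM (-2.16). No tested peak lay within 1 kb of the start of Kit, which had 18 of 46 peaks lowered and 9 raised.

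At Gata2, a factor of stem and early erythroid and mast cells, near and far elements moved apart. The promoter peak (chr6:88198100-88199011) gave 19, 16.7, 18.7 and 19.8 CPM in R132H and 28.7, 24.4, 26.5 and 31.6 in R172K, and the peaks at chr6:88202929-88203690 and chr6:88193441-88194540 rose by smaller amounts (0.40 and 0.37 on the log2 scale). Upstream, the peak at chr6:88165878-88166641 gave 9.96, 8.77, 11.2 and 8.65 CPM in R132H and 1.58, 1.56, 1.37 and 0.901 in R172K. That loss (log2 fold change -2.83, SE 0.15, adjusted p = 5.53e-19) stood beside a promoter gain of 0.59 (SE 0.079, adjusted p = 6.72e-08). A further upstream peak fell from 2.68 ± 0.185 to 1.11 ± 0.153 CPM (-1.24). Tet2-/- libraries had 6.47 CPM at the first of these upstream peaks, against 11.6 in WT.

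The Hoxa genes and their partners had 66 of 195 peaks raised (33.8%) and 30 lowered (15.4%), with a median of 0.17. Meis1, which the HSC list also holds, had 64 of these 195 peaks and 25 of the 66 raised ones. Within 1 kb of a start site 9 of the list's 33 peaks were raised (27.3%), against 31.3% of all such peaks. Hoxa10 had 4 of 5 peaks raised, among them the peak at its start site (12.7 ± 0.754 to 16.2 ± 1.98 CPM, log2 fold change 0.37), and Hoxa7 2 of 2. Neither Hoxa9 peak was called (log2 fold changes 0.12 and 0.06). A peak named for Evx1, a homeobox gene beside the cluster, and 106365 bp from it, fell from 3.84 ± 0.524 to 0.998 ± 0.217 CPM (n = 4, adjusted p = 2.17e-12). The list's median stayed between 0.11 and 0.20 over the 20 alternative settings.

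Among lineage lists, megakaryocyte genes had raised peaks most often. They had 42 of 133 peaks raised (31.6%) and 31 lowered, but beyond 2-fold 5 raised and 14 lowered. Within 1 kb of a start site 10 of 15 were raised, against 31.3% of all such peaks. Itga2b, encoding the platelet integrin CD41, gave 32.8, 30.6, 32.3 and 34.2 CPM in R132H and 52.1, 45.4, 48.5 and 48.8 in R172K at its promoter (log2 fold change 0.59, SE 0.063, adjusted p = 2.54e-10). The promoter of Pf4, platelet factor 4, went from 22.6 ± 0.963 to 29 ± 2.64 CPM (0.37), and Rab27b, which acts in granule release, had 10 of 11 peaks raised. Rab27b thus gave 10 of the list's 42 raised peaks. Thbs1 and Cd9 leaned the other way, with 13 of 31 and 8 of 19 lowered. Summed over all 133 peaks the list lay at 1122.6 to 1194.0 CPM in R132H and 1275.9 to 1329.7 in R172K. Strong peaks weigh most in such sums, and upward separation was not particular to this list. Hypoxia genes lay at 3180.1 to 3318.6 and 3361.4 to 3559.5 CPM, and stroma and endothelium genes at 914.8 to 939.4 and 946.7 to 976.9.

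Myeloid, dendritic and B cell lists leaned to loss. Myeloid genes had 51 of 311 peaks raised (16.4%) and 108 lowered (34.7%, median -0.16), dendritic cell and MHC class II genes 42 and 104 of 268 (-0.17), and B cell and lymphoid priming genes 71 and 142 of 405 (-0.15). Itgam, the integrin CD11b, had 11 of 15 lowered, F13a1 12 of 29, and the start-site peak of Elane, neutrophil elastase, fell from 4.27 ± 0.73 to 2.56 ± 0.31 CPM (-0.70). Tcf4, the factor of plasmacytoid dendritic cells, had 33 of 66 lowered, and one intron peak gave 7.66, 8.09, 7.25 and 6.57 CPM in R132H against 1.0, 0.974, 1.22 and 0.901 in R172K. Ebf1, a B cell factor, had 16 of 28 lowered and none raised, and Dntt, which adds bases at antigen receptor joints, fell at an intron peak from 12.9 ± 0.911 to 3.5 ± 0.49 CPM (-1.88). Among defining markers of mature cells, the start-site peak of S100a8, a neutrophil marker, fell from 1.7 ± 0.359 to 0.714 ± 0.215 CPM. Summed over the list, B cell peaks lay at 2207.6 to 2282.9 CPM in R132H and 2093.2 to 2203.2 in R172K, while the myeloid and dendritic sums overlapped (2428.2 to 2502.3 and 2326.0 to 2465.2 CPM, and 1597.9 to 1697.9 and 1577.4 to 1614.0 CPM). Whether cell composition takes part in these differences was not tested.

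Myeloid genes held exceptions in both directions at single loci. The first myeloid genes by p were gains, at Csf3r and Ly86. The Ly86 peak, 90353 bp from the gene, rose from 32.4 ± 1.84 to 54.0 ± 4.83 CPM (n = 4, log2 fold change 0.75). Next came a loss at an intron peak of Spi1, from 6.63 ± 0.47 to 2.47 ± 0.507 CPM (-1.46). At Csf3r the promoter gained while a peak 4290 bp outside the gene fell from 3.59 ± 0.759 to 1.29 ± 0.473 CPM (-1.39) and an intron peak from 2.08 ± 0.288 to 0.826 ± 0.139 CPM (-1.31). The promoter of Cebpa, the factor of granulocyte commitment, did not pass the test (76.3 ± 6.86 against 76.0 ± 4.1 CPM, log2 fold change 0.00, adjusted p = 0.976), and 4 of its 11 peaks were lowered. At Irf8, the factor of monocyte and dendritic fate, a promoter-class peak with 24.5 ± 1.08 CPM in R132H and 23.6 ± 0.824 in R172K did not pass the test (adjusted p = 0.597), while a peak 12189 bp away from the gene went from 4.22 ± 0.615 to 1.77 ± 0.42 (-1.19).

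Erythroid and heme genes had 62 of 274 peaks raised and 96 lowered (35.0%, median -0.09). Within 1 kb of a start site 13 of 28 were raised and 5 lowered, against 31.3% and 13.9% of all such peaks. Ank1 and Sptb, of the red cell membrane skeleton, had 12 of 15 and 8 of 17 lowered and none raised, and all 3 peaks of Gata1 were lowered. A peak in Zfpm1, encoding the Gata1 cofactor Fog1, fell from 6.82 ± 0.642 to 1.37 ± 0.343 CPM (-2.39) and was at 3.14 CPM in Tet2-/-. Mast cell, basophil and eosinophil genes split evenly (24 and 24 of 96). There was gain at Ms4a2, the beta chain of the IgE receptor (9.22, 8.2, 8.2 and 8.65 CPM to 19.5, 17.2, 17.6 and 21.0, log2 fold change 1.14). At Cpa3, mast cell carboxypeptidase, 5 of 8 were raised. An intron peak of Hdc fell from 18.4 ± 1.24 to 8.71 ± 1.13 CPM (n = 4, log2 fold change -1.07). Within 1 kb of a start site 1 of the list's 10 peaks was raised and 4 were lowered. Summed over the 96 peaks, levels lay at 332.4 to 346.4 CPM in R132H and 349.4 to 360.7 in R172K.

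T and NK cell genes (61 raised and 83 lowered of 276, median -0.11), stroma and endothelium (48 and 60 of 213, -0.01), interferon response (32 and 32, each 24.2% of its peaks, 0.01) and AP-1 and immediate early genes (113 and 143 of 482, -0.07) lay nearer the background. Within these, Lef1 had 13 of 25 peaks lowered and none raised, and Gata3 19 of 42 raised. Zbp1, a sensor of nucleic acids, was lowered at its promoter, from 22.4, 24.1, 22.8 and 22.1 CPM to 9.81, 6.82, 7.69 and 8.11 (log2 fold change -1.46, SE 0.093, adjusted p = 2.29e-16). A start-site peak of Casp1, the inflammatory caspase that acts downstream of Aim2, likewise fell, from 8.68, 11.3, 9.58 and 9.88 CPM to 2.46, 2.14, 4.03 and 2.98 (-1.69). Casp1 and Aim2 were picked after their values were seen. Nr4a2 had 8 of 12 peaks raised and none lowered, whereas Klf4 had 23 of 43 lowered. Cell cycle genes were called in 41.6% of 303 peaks, and within 1 kb of a start site 14 of 34 were raised and 0 lowered, against 31.3% and 13.9% of all such peaks. Ccnd1, encoding cyclin D1, had 14 of 27 lowered and 1 raised.

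Neighbouring peaks had the same direction more often than the totals give (50.2%), at every distance. Of those under 1 kb apart that were both called, 1031 of 1300 pairs (79.3%) had the same direction. At 1 to 5 kb the share was 66.7%, at 5 to 20 kb 64.9%, at 20 to 100 kb 67.4% and beyond 100 kb 70.1%, so that past 1 kb it did not fall with distance. Yet of 3748 genes with 10 or more tested peaks, 3230 (86.2%) held both raised and lowered ones. Genes with most of their peaks called in one direction were picked after the values were seen. Adamts5, encoding a protease of cartilage aggrecan, had 11 of 11 peaks raised (median 1.70), Mdga2, a synaptic adhesion regulator, 14 of 16, and Slit2, an axon guidance ligand, 25 of 29 with 1 lowered. Tshz2, a zinc-finger gene, had 43 of 45 lowered (median -2.18), Ntrk2 15 of 16, Ptprm, a receptor tyrosine phosphatase, 28 of 32, and Sdk1, a cell adhesion gene, 24 of 26 with 1 raised.

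The X chromosome leaned to gain, with 24.9% of 2778 peaks raised and 16.2% lowered and a median log2 fold change of 0.11, where the other chromosomes together had 23.3% and 26.9% and a median of 0.00. The median was 0.12 in the replicates with low Xist signal and 0.10 in those with high Xist signal, and 0.14 under cyclic loess. With library size alone as the scaling it was 0.06, where the other chromosomes had -0.05.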

How the data were processed

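ATAC-seq libraries of sorted LSK cells were analysed from the table of raw counts per peak that the authors deposited (125343 peaks, 20 libraries). The submitters' processing notes name Trim Galore, BWA, Picard, SAMtools, MACS2, featureCounts and mm10; the sources used here give no versions, order or settings. Class and distance to a start site are the deposited annotation's. Each peak was named for the nearest of 21900 RefSeq protein-coding genes (GRCm38.p6), and distance to a gene is measured to it.

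Peaks were filtered with edgeR's filterByExpr, leaving 123908. Counts were scaled by TMM and fitted over all 20 libraries with edgeR 4.0.16 (quasi-likelihood test, Benjamini-Hochberg adjustment over all tested peaks, R 4.3.3), without a replicate block. CPM uses TMM library sizes, and precision is limited by 4 pools per group and the totals given above. The procedure was also run on simulated counts in which few peaks changed. That run does not test the scaling where as many peaks differ as here. Alternatives were other scalings, no filter, DESeq2 1.42.0, limma voom (3.58.1), 8 libraries only, a replicate block, replicate subsets and leaving out each library.

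Genes were named by rule. In each direction these were the first 10 by p, the first 5 by fold with at least 5 CPM, and likewise for promoters. All of these had to have separated groups. Up to 3 genes per gene list and every Idh1 and Idh2 peak were added without that condition. Predicted gene models were left out. Others are said to have been picked after their values were seen or belong to the lists and markers. The comparison, the 20 lists and the rules were chosen with earlier results of these data known. CpG and motifs were counted in RefSeq promoter windows matched to peaks over a start site, as no genome was used here. Some items are not reported here.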

Additional observations from a re-analysis of the deposited data

Results flagged for a closer look

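Among the 105 peaks named by the rules, 210 groups of 4 libraries were examined for a library far from the other 3 (gap over range above Dixon's 95% critical value), and 9 had one, where chance gives about 1 in 20. Of these 9, 8 are described here. In R132H, replicate 1 stood apart at Msl3l2 (22.4 CPM, others 24.4 to 24.6), Elovl6 (11.5 CPM, others 10.2 to 10.4) and Btg2 (10.9 CPM, others 8.47 to 8.83), and replicate 2 at Ezh1 (8.94 CPM, others 10.4 to 10.6). In R172K, replicate 1 stood apart at Vegfa (1.35 CPM, others 1.17 to 1.18) and Cxcl12 (3.15 CPM, others 3.31 to 3.33). Replicate 4 of R172K was low at the Idh2 peak 4913 bp from the gene (8.62 CPM, others 10.7 to 11) and high at the intron peak of Idh1 (88.2 CPM, others 81.1 to 81.9). In each of these peaks the groups did not overlap with that library included, which at Msl3l2 was a condition of the ranking.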

How the results depend on the processing

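Of 61930 called peaks, 46.6% were raised. The counts called were 62396 with RLE size factors, 62060 without the filter, 57049 with DESeq2, 61822 with limma voom and 62149 with the 8 libraries alone. The share raised moved with scaling, from 39.8% of 59601 calls with library size only to 51.1% of 63838 with upper-quartile factors, and cyclic loess gave 50.3% of 62170 calls, with 5930 raised and 12733 lowered beyond 2-fold. Leaving out 1 library gave 54402 to 59862 called, 24922 to 27497 raised, 29480 to 32365 lowered, and beyond 2-fold 4227 to 4705 raised and 14259 to 15776 lowered. Replicates 2 and 4 alone gave 37349 called, 15607 raised and 21742 lowered, from fewer libraries and with the shallowest among them; replicates 1 and 3 alone gave 53438. With the replicate block 65205 peaks were called, and 66635 with the 8 libraries alone and the block. Deviations of same-numbered libraries correlated at 0.178, 0.069, 0.056 and 0.123, and the labels tie the numbers to nothing shared, so the block is no pairing; each R172K library correlated best with its own number, a hint from the data only. Over 20 settings 3 of 105 named peaks lost their call in at least 1: the Idh2 peak with adjusted p = 0.0477 in 9, another Idh2 peak in replicates 1 and 3 alone (log2 fold change 0.47), and the Idh1 intron peak in 2. Among counts of list peaks, 25 moved by over 1.5 times and 775 did not, and the cause was not tested. List medians stayed above 0 for the mitochondrial, CTCF, megakaryocyte and Hoxa lists, and below 0 for the myeloid, dendritic, B cell, erythroid, T and NK cell and AP-1 lists. The planned naming of genes from the deposited annotation was not run.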
